A study of Mus musculus with 10 samples.

Results

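The subject is the synchronous control pool, 2 of the 10 arrays of a study of regional gene expression in the mouse left ventricle, chosen by their titles as the pooled control and its dye flip. RNA of the lateral wall and RNA of the septal wall were labelled with Cy3 and Cy5 and hybridised together, and the second array exchanged the dyes. The other 8 arrays held 4 dyssynchronous hearts, numbered 1, 3, 4 and 5, each again lateral against septal wall in both dye orientations. In the design text dyssynchrony, in which the walls no longer contract together, goes with an implanted pacemaker, and the synchronous mice gave 1 pooled lateral and 1 pooled septal RNA sample. The labels used here give no strain, age or sex, no number of pooled mice and no handling of the synchronous mice. The pool's channels are labelled PNL and PNS, which were read as lateral and septal from the matching labels of the hearts.

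Each value is the log2 of the lateral over the septal signal: above 0 a transcript was more abundant in the lateral wall, below 0 in the septum. The array with lateral RNA in Cy5 is called the Cy5-lateral array and the array with lateral RNA in Cy3 the Cy3-lateral array. The log base and the direction of the deposited ratios are likely rather than stated. Features, the single probe spots, were averaged per gene symbol, which gave 16504 genes with a value on every array. A ratio shows which wall had more of a transcript and not how much there was, so the labelled tissue could not be checked against absolute marker levels. The 2 arrays share 1 pool of RNA and are no biological replicates, so the pool's own ratios carry no test, and the number of arrays limits their precision.

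As background, the interventricular septum and the lateral free wall of the left ventricle are built of the same cardiomyocytes, fibroblasts, vessels and macrophages but differ in origin, in loading and in the order in which they are activated. Regional transcription factors such as the Iroquois family help to set electrical differences between parts of the mouse ventricle. The atrial light chains Myl4 and Myl7 and the beta-myosin heavy chain Myh7 are low in adult mouse ventricle, where the alpha-myosin heavy chain Myh6 predominates.

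On the pool arrays 3088 genes lay on the lateral side of both arrays (18.7% of all genes) and 2798 on the septal side of both (17.0%). Another 8283 genes (50.2%) had opposite signs, and 2335 (14.1%) were at exactly 0 on at least 1 array. A gene has opposite signs when the change between its 2 arrays outweighs its difference between walls. With 1 array per dye orientation, dye effect and noise of the single arrays cannot be told apart in that change. Beyond 1.5-fold, a log2 ratio of 0.58, on both arrays, 99 genes were lateral (0.600%) and 95 septal (0.576%), while 826 (5.00%) passed the limit in opposite ways. With the hearts' mean dye effect subtracted from each pool array the numbers were 165 lateral and 115 septal, and 110 of the 194 genes stayed among these 280. Of the 826, 442 were higher in Cy5 on both arrays and 384 were higher in Cy3. The Pearson correlation of the 2 arrays over genes was -0.30 as turned to lateral over septal and 0.30 as deposited, a description over genes that share both RNA samples and both dyes. The Cy5-lateral array had the larger ratios, with a median absolute value of 0.22 against 0.15, and 3833 of its genes passed 1.5-fold against 2033.

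**Figure D1:**
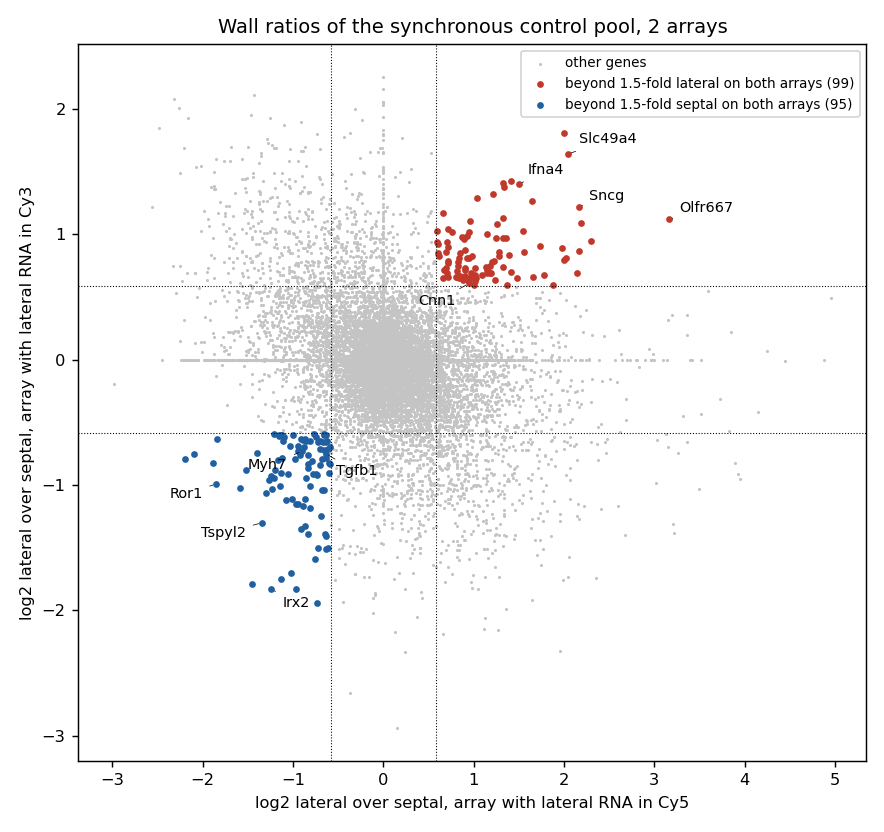
Log2 ratio of lateral over septal wall of each gene on the Cy5-lateral array (horizontal axis) and the Cy3-lateral array (vertical axis) of the control pool, one point per gene. Dotted lines mark 1.5-fold. The 99 lateral and 95 septal genes occupy the upper right and lower left corners, and the other corners hold 826 genes.

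How closely a single feature gives a ratio could be read from 48 genes with 10 or 11 features each, 487 in all, which for 45 genes match a single transcript accession. The SD among features of one gene ran from 0.04 to 1.28 on the Cy5-lateral array (median 0.26) and from 0.05 to 0.81 on the Cy3-lateral array (median 0.18). It exceeded 0.58 for 15 of the 48 genes on the first and for 6 on the second. Hspb7, a small heat shock protein of heart and skeletal muscle, had 11 features between -0.59 and -0.44 on the Cy5-lateral array and between -0.50 and -0.28 on the Cy3-lateral array. All of its features were septal on both arrays, as were the 10 features of the class I histocompatibility gene H2-Q7, which averaged -0.25 ± 0.04 and -0.12 ± 0.06 (SD over features). No other of the 48 genes had every feature on one side on both arrays. The 10 features of the hyaluronidase gene Hyal3 spread from -1.08 to 3.30 on the Cy5-lateral array and those of Spats1 from -0.28 to 3.45. Among the 487 single features, 7 were beyond 1.5-fold one way on both arrays (1.44%), in 7 different genes, where 1.18% of all genes are beyond it. By the mean of its features none of the 48 genes was. Of the 194 genes beyond 1.5-fold on both arrays, 189 rested on 1 feature and 5 on 2.

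**Figure D2:**
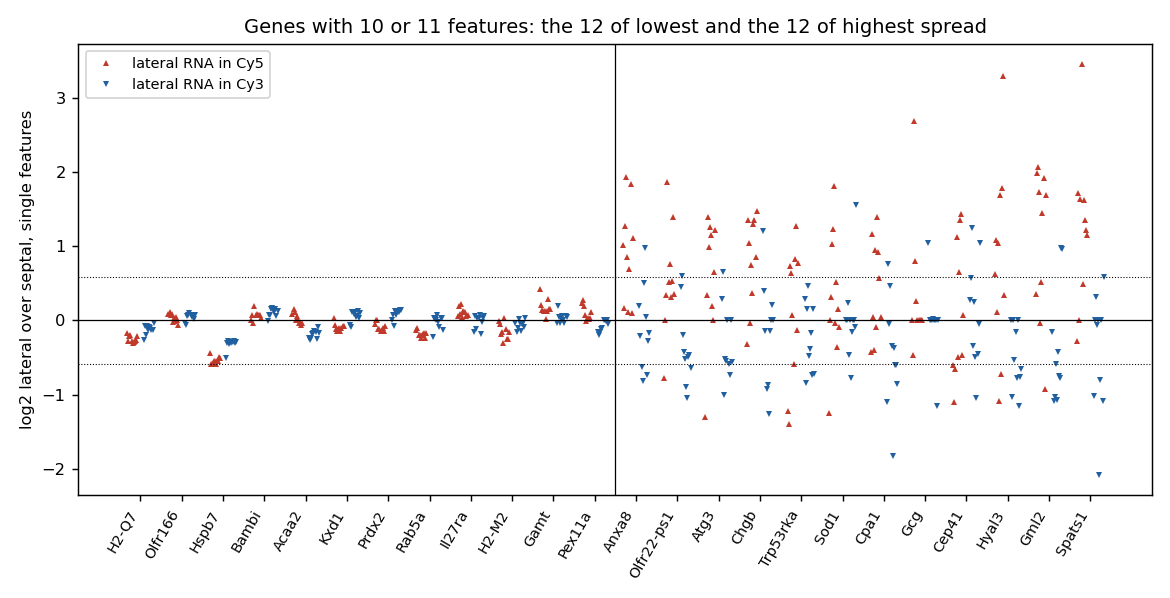
Log2 ratio of every single feature of genes with 10 or 11 features, for the 12 genes of lowest and the 12 of highest spread, with upward triangles for the Cy5-lateral array and downward triangles for the Cy3-lateral array. Dotted lines mark 1.5-fold. The features of Hspb7 lie close together below 0 on both arrays, and those of Hyal3 and Spats1 reach from below 0 to above 3 on the Cy5-lateral array.

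The 99 lateral genes had a median mean ratio of 0.93, from 0.66 to 2.14, and the 95 septal genes one of -0.88, from -1.62 to -0.61. At the limit, the septal genes Csta2 (-1.21 and -0.59 on the Cy5-lateral and Cy3-lateral arrays) and Iqcf1 (-0.77 and -0.59) were just inside, and Olfr868 (-0.67 and -0.58) and Klb (-0.58 and -1.03) just outside. The highest lateral ratio was that of the odorant receptor gene Olfr667, at 3.16 on the Cy5-lateral array and 1.12 on the Cy3-lateral array. Sncg, the gamma-synuclein gene, was at 2.16 and 1.22. Ifna4, a type I interferon gene, was at 1.5 and 1.40, and Ncapg, a condensin subunit of mitotic chromosomes, at 1.32 and 1.41. These values were of like size in both dye orientations for Ifna4 and Ncapg but not for Olfr667. Trp63, a transcription factor of stratified epithelium, was at 1.98 and 0.89, and the secreted ligand gene Wnt8b at 1.48 and 0.65.

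On the septal side the odorant receptor gene Olfr1208 was lowest, at -1.45 and -1.79 on the Cy5-lateral and Cy3-lateral arrays. The Iroquois factor gene Irx2 followed at -1.24 and -1.83, and Ror1, a receptor of Wnt signalling, was at -1.85 and -0.99. The septal genes also held Tspyl2, a nucleosome assembly protein family gene (-1.34 and -1.30), and the transcription factor gene Sox6 (-0.97 and -1.15). For both the ratio was nearly the same in either dye orientation. Pdgfd, a platelet-derived growth factor gene, was at -1.27 and -0.96. Tgfb1, the transforming growth factor beta gene, was at -0.64 and -0.75 and Il6ra, the interleukin 6 receptor gene, at -1.12 and -0.60.

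Genes of heart muscle lay toward the septum in the pool. Of 24 measured markers of ventricular cardiomyocytes, 0 were on the lateral side of both arrays and 15 on the septal side (62.5%, against 17.0% of all genes), with none beyond 1.5-fold. The median pool ratio of the list was -0.12, against 0.00 over all genes, and its median over the mean of the hearts was 0.00. Des, the intermediate filament protein desmin, was at 0.02, -0.22, -0.17 and -0.12 in hearts 1, 3, 4 and 5, against -0.84 and -0.40 on the Cy5-lateral and Cy3-lateral pool arrays. Myh6 was at -0.01, -0.13, 0.05 and -0.26 in the hearts, against -0.47 and -0.58 in the pool. Both pool ratios of each gene were below every heart. The differences of hearts minus pool were 0.50 for Des and 0.44 for Myh6, and neither passed the limma test of hearts against pool. Ckm, the muscle creatine kinase, stood at -0.59 and -0.17 in the pool, Tpm1, alpha-tropomyosin, at -0.45 and -0.20, and Actc1, cardiac actin, at -0.27 and -0.15. The 9 markers that were not of one sign included the sarcomere protein Tcap (-1.08 and 0.63) and the light chain Myl3 (-0.77 and 0.11), which averages 2 features. Ttn, titin, averaged 7 features that did not all share a sign, with 4 below 0 and 3 above 0 on the Cy5-lateral array.

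**Figure D3:**
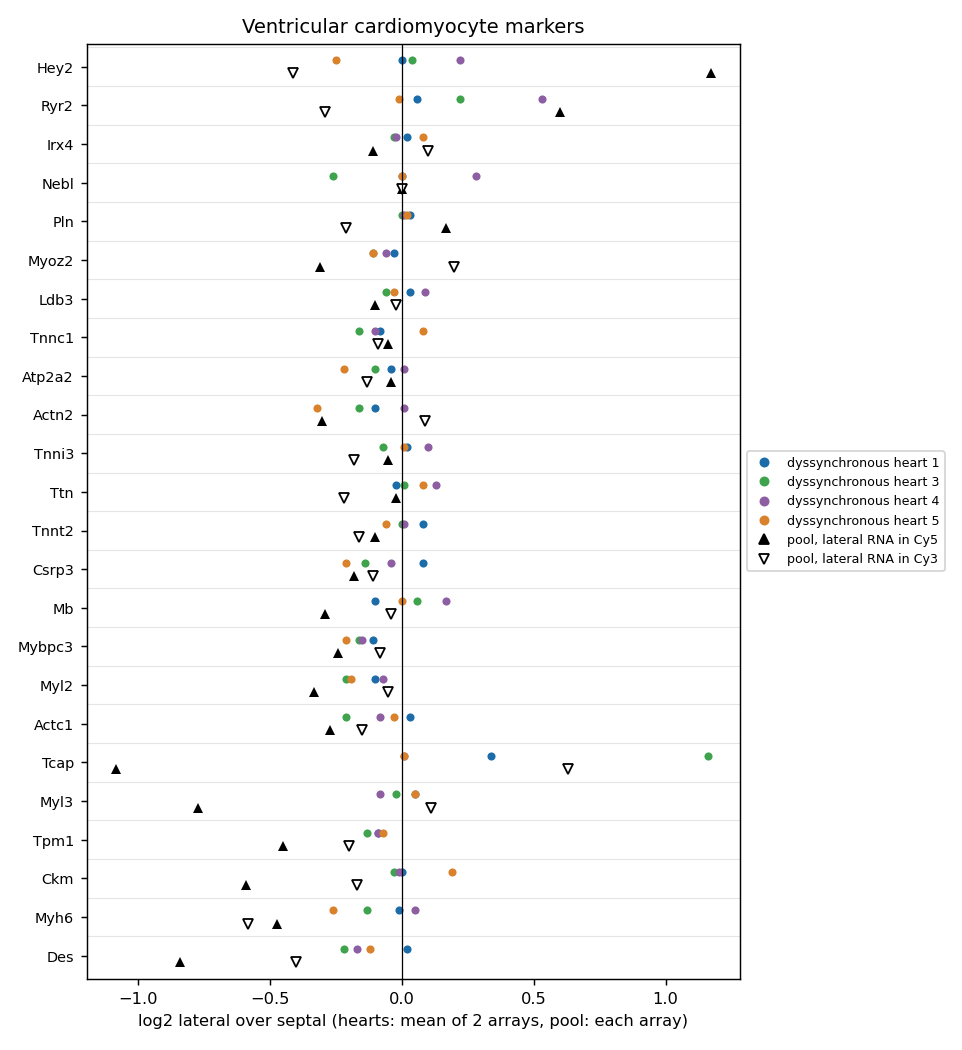
Log2 ratio of lateral over septal wall for 24 ventricular cardiomyocyte markers, in order of the pool mean. Coloured circles are the 4 dyssynchronous hearts (mean of 2 arrays each) and triangles the 2 pool arrays. For Des and Myh6 both triangles lie to the left of all 4 circles, and for Tcap and Hey2 they lie on either side of 0.

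The same side held for the fetal and hypertrophy program, with 1 of 18 measured genes lateral and 10 septal (55.6%), and for Z-disc, M-band and stretch genes, with 2 of 21 lateral and 8 septal (38.1%), against 17.0% septal of all genes. These lists share genes with each other and with the ventricular list. Myh7 was at -0.81, -1.10, -1.18 and -2.74 in hearts 1, 3, 4 and 5, against -0.90 and -0.73 in the pool. Ankrd1, a stretch-responsive titin-binding protein, was at -0.32, -0.73, -0.77 and -0.86 in the hearts, against -0.43 and -0.59 in the pool. For both genes the ranges of hearts and pool overlapped, and the differences of hearts minus pool, -0.64 and -0.16, had an adjusted p of 1.00 in limma. Rcan1, a calcineurin regulator, was at -0.43 and -0.38 in the pool. The natriuretic peptide genes Nppa (-0.15 and 0.19) and Nppb (-0.12 and 0.13) had opposite signs on the 2 pool arrays, as did the slow troponin gene Tnni1 (-0.17 and 0.16).

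Among the 41 measured genes of fatty acid and glucose use, 5 were lateral and 23 septal on both arrays (12.2% and 56.1%). The shares of all genes were 18.7% and 17.0%. The median of the list was -0.08 in the pool and 0.01 in the hearts. The glycolytic enzyme gene Hk1, hexokinase, was farthest from 0 at -0.87 and -0.55, and Ucp3, a mitochondrial carrier, stood at -0.27 and -0.45. The lipid handling genes Fabp3 (-0.30 and -0.25) and Lpl (-0.22 and -0.33) were septal by small amounts, as was Pdk4 (-0.34 and -0.19), a brake on glucose oxidation. Bdh1, which interconverts ketone bodies, was lateral at 0.42 and 0.46 in the pool and in all 4 hearts. The respiratory chain did not share the septal lean, with 14 of 60 oxidative phosphorylation genes lateral, 14 septal (23.3% each) and a median of 0.01. Within it Atp5b, a subunit of the ATP synthase, was at -0.35 and -0.39.

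Connective tissue lists had more septal than lateral genes as well. Fibroblast and collagen genes had 2 lateral and 12 septal of 32 (6.25% and 37.5%), against 18.7% and 17.0% of all genes. Tendon, cartilage and fibrous ring genes had 1 and 10 of 27 (3.70% and 37.0%), and matricellular genes and matrix enzymes 1 and 9 of 28 (3.57% and 32.1%). Col1a1, type I collagen, was at -0.27 and -0.29 in the pool, Col4a2, of basement membrane, at -0.38 and -0.35 and the collagen crosslinking enzyme Loxl1 at -0.31 and -0.39. Scx, the tendon transcription factor scleraxis, was at -0.56, -0.45, -0.96 and -0.51 in hearts 1, 3, 4 and 5, against -0.78 and -0.35 in the pool. Dkk3, a secreted Dickkopf family protein, was at -2.74, -1.13, -3.29 and -3.69 in the hearts, against -0.43 and -0.74 in the pool. Every heart was below both pool arrays for Dkk3, while the ranges of Scx overlapped. The difference of hearts minus pool for Dkk3 was -2.12 ± 1.03 (SE, adjusted p 1.00 in limma). Other members of these lists had opposite signs on the pool arrays, such as Angptl7 (0.11 and -0.61), Cilp (0.62 and -0.02) and Col3a1 (0.09 and -0.03).

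Atrial markers had 2 lateral and 4 septal of 15 (13.3% and 26.7%) in the pool, against 18.7% and 17.0% of all genes. Their median was 0.02 in the pool and -0.18 in the hearts. Myl7 was at -5.18, -3.36, -3.53 and -6.10 in hearts 1, 3, 4 and 5, against -0.02 and -0.22 in the pool, a difference of -4.42 ± 1.21 (SE, adjusted p 0.956 in limma). Myl4 was at -2.35, -1.07, -0.95 and -4.17 in the hearts, against -0.55 and -0.39 in the pool. Mybphl, a myosin-binding protein of atrial muscle, had a mean of -1.36 in the hearts, against 0.47 and -0.11 in the pool, and Sln, the calcium pump regulator sarcolipin, was at exactly 0 on both pool arrays. Of the 4 genes named here Myl7 and Myl4 were septal on all 10 arrays.

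Other cell types went either way. Endothelial markers had 5 lateral and 7 septal genes of 29 (17.2% and 24.1%) and endocardial markers, which share some of them, 3 and 5 of 12 (25.0% and 41.7%), against 18.7% and 17.0% of all genes. Vwf, the von Willebrand factor of endothelium, was septal at -0.96 and -0.07. Its ratios average 2 features, 1 of them at exactly 0 on the Cy3-lateral array. Lyve1, a hyaluronan receptor of lymphatic endothelium, was lateral at 0.53 and 1.19. Of 8 measured red cell markers 4 were lateral and 0 septal, with alpha-globin Hba-a1 at 0.28 and 0.17 and the heme synthesis enzyme Alas2 at 0.20 and 0.38. Klf1, the erythroid transcription factor, was at exactly 0 on both pool arrays, and Rhag, a red cell membrane protein with the largest single ratio of the list, was at -1.49 and an exact 0. Of 22 macrophage and monocyte markers 10 were lateral (45.5%) and 5 septal (22.7%). Among them were the scavenger receptor Cd163 (0.27 and 0.08) and the surface lectin Siglec1 (0.93 and 0.04) laterally and the integrin Itgam (-0.54 and -0.28) septally. Neural and Schwann cell markers had 5 lateral genes of 22, a share (22.7%) near that of all genes, and 0 septal ones. The growth factor receptor Gfra3 led them (0.63 and 0.44). Adipocyte markers had 6 lateral genes of 19 (31.6%) and 3 septal ones (15.8%), the second share again near that of all genes. Lymphocyte and neutrophil markers had 4 lateral (18.2%) and 1 septal (4.55%) of 22. Epicardial and mesothelial markers, genes of the outer surface layer of the heart, had 7 lateral and 2 septal of 23 (30.4% and 8.70%). Gpm6a was at 0.48, 0.90, -0.28 and 0.38 in hearts 1, 3, 4 and 5, against 0.96 and 0.65 in the pool. Mesothelin, Msln, was at 0.96 and 0.46 in the pool and the keratin Krt18 at 1.01 and 0.48, but Rspo1, a secreted Wnt agonist (-0.16 and -1.73), and Krt19 (-1.12 and -0.21) were septal, and Wt1, a defining epicardial factor, was not of one sign (0.44 and -0.13). These lists stand beside the septal lean of muscle and matrix genes, their part in it was not tested, and in such tissue RNA fewer cells of a type and less RNA per cell cannot be told apart.

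**Figure D4:**
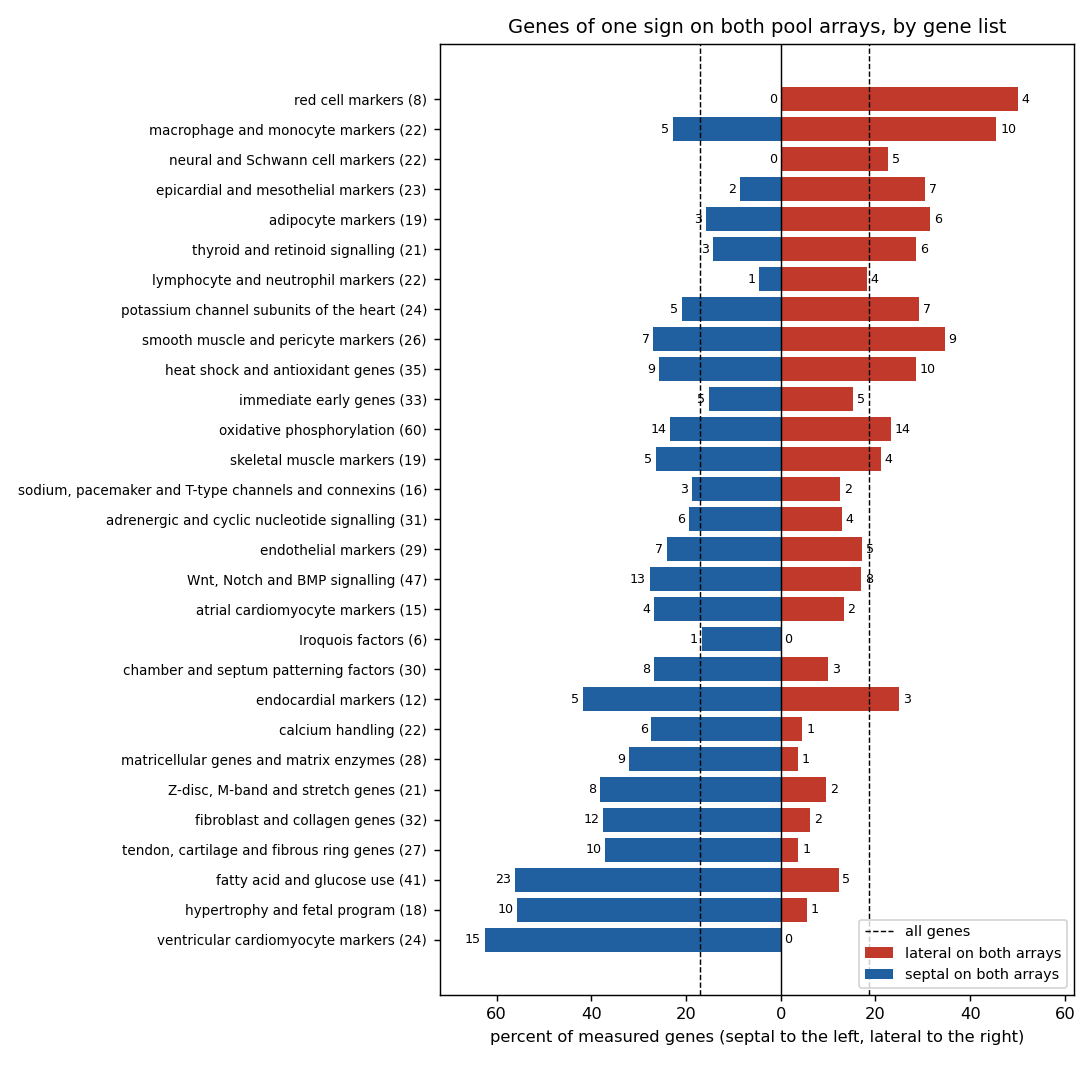
Percent of the measured genes of each list that were septal (left) or lateral (right) on both pool arrays, with the number of genes at the bar ends and the number measured in brackets. Dashed lines mark the 17.0% and 18.7% of all genes. Ventricular cardiomyocyte markers stand at the bottom with 15 septal and 0 lateral genes and red cell markers at the top with 4 lateral and 0 septal.

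Smooth muscle and pericyte markers had 9 lateral and 7 septal of 26 genes (34.6% and 26.9%), against 18.7% and 17.0% of all genes. Their median was 0.09 in both the hearts and the pool. Cnn1, the actin-binding protein calponin, was at 0.62, 1.04, 0.64 and 1.11 in hearts 1, 3, 4 and 5, against 0.95 and 0.61 in the pool. Lmod1, the smooth muscle leiomodin that starts actin filaments, was at 0.55, 1.42, 0.74 and 1.31 in the hearts, against 1.75 and 0.37 in the pool. Both genes were lateral on all 10 arrays, and for Lmod1 the pool arrays lay on either side of the range of the hearts. Other contractile genes of the same cells did not follow, with Myh11 (-0.04 and 0.68), Tagln (-0.00 and 0.19) and Mylk (0.99 and -0.45) of opposite sign and Acta2 septal (-0.31 and -0.23). Sncg, held in this list, was at 1.58, 0.44, 0.14 and 0.00 in the hearts, against 2.16 and 1.22 in the pool.

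These muscle genes are textbook targets of serum response factor, which binds the CArG box. The 250 bases before a RefSeq transcript start (GRCm38.p6) are therefore shown for the lateral pair Cnn1 and Lmod1 and for the septal gene Actc1. Any CArG box is in capitals. The windows are chr9:22099003-22099252 for Cnn1 (plus strand), chr1:135324563-135324812 for Lmod1 (plus strand) and chr2:114052876-114053125 for Actc1 (minus strand), each written 5′ to 3′.
Cnn1: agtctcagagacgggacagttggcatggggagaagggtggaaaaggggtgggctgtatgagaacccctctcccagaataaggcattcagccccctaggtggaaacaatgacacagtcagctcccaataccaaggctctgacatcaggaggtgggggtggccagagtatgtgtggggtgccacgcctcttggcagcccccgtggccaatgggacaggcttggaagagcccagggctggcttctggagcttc
Lmod1: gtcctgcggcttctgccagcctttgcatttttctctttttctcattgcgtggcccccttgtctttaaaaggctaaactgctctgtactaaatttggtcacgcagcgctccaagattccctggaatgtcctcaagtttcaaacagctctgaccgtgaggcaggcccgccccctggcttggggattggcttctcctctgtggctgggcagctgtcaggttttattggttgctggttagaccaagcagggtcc
Actc1: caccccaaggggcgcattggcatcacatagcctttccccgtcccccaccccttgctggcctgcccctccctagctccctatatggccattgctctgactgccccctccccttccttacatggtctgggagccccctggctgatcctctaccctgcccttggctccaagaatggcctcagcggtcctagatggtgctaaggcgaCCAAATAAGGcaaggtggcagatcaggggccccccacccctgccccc
The box was the only motif searched, on both strands. It was found in Actc1 at bases -47 to -38 from the start and in neither lateral gene. The window of Myl3, which was not of one sign, held a box at bases -85 to -76. That of the septal gene Irx2 held none, so the contrast shown rests on the choice of example. The Cnn1 window runs past the start of the gene's annotated span at chr9:22099221, and the Irx2 window lies inside the span of its gene. A window without a box thus speaks for that transcript start only. The box was present in 482 of 32851 RefSeq windows of this length (1.47%) and in 439 of 27025 genes with a window (1.62%). By gene, it was in 1 of 20 smooth muscle genes (5.0%) and in 4 of 22 ventricular genes (18.2%), Actc1 among them. A match describes these letters only.

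Among genes that pattern the chambers and the septum 3 of 30 were lateral (10.0%) and 8 septal (26.7%), against 18.7% and 17.0% of all genes. The heart transcription factors Hand2 (-0.53 and -0.48), Gata4 (-0.49 and -0.46) and Mef2a (-0.34 and -0.36) had nearly equal ratios in both dye orientations. Hand2 was at 0.26, 0.01, 0.19 and 0.17 in hearts 1, 3, 4 and 5, all on the other side from the pool, a difference of 0.66 ± 0.14 (SE, adjusted p 0.850 in limma). Of the 6 Iroquois genes Irx2 alone was of one sign on the pool arrays. Irx2 was at -1.35, -1.06, -0.87 and -1.55 in the hearts, against -1.24 and -1.83 in the pool, so the ranges overlapped, and the difference was 0.33 ± 0.30 (SE, adjusted p 1.00 in limma). Its neighbour Irx1 was at -2.25 on the Cy5-lateral array and 0.75 on the Cy3-lateral array. Irx3, Irx4, Irx5 and Irx6 had pool means between -0.12 and 0.08.

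Among 24 potassium channel subunits 7 were lateral (29.2%) and 5 septal (20.8%), against 18.7% and 17.0% of all genes. Kcnd2, a pore subunit of the transient outward current, was at 0.47, 0.26, 0.91 and 0.56 in hearts 1, 3, 4 and 5, against 0.63 and 0.39 in the pool. Kcne1, the accessory subunit of the slow delayed rectifier, was at -0.76, -0.33, -0.81 and -0.29 in the hearts, against -0.50 and -0.62 in the pool. The pool lay inside the range of the hearts for both. Kcnip2, an auxiliary subunit of the transient outward current, had opposite signs (-0.91 and 0.78), as did the pacemaker channel Hcn4 (1.25 and -1.39). Gja1, the ventricular gap junction protein, was at 0.07, 0.46, -0.02 and 0.22 in the hearts, against -0.41 and -0.25 in the pool, a difference of 0.51 ± 0.22 (SE, adjusted p 1.00 in limma). Of 22 measured calcium handling genes 1 was lateral and 6 septal on both arrays (4.55% and 27.3%), against 18.7% and 17.0% of all genes. The septal ones included Jph2 (-0.40 and -0.24), Trdn (-0.18 and -0.22) and, by small amounts, Atp2a2 (-0.04 and -0.13). Pln (0.17 and -0.21) and Ryr2 (0.60 and -0.29) had opposite signs.

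Of 733 odorant receptor genes, whose known site is the olfactory epithelium, 13 were beyond 1.5-fold laterally on both arrays (1.77%, against 0.600% of all genes) and 5 septally (0.682%, near the 0.576% of all genes). Another 80 (10.9%) passed it in opposite ways, against 5.00% of all genes. Of the 125 vomeronasal and taste receptor genes 1 passed on each side (0.80%), near the shares of all genes, and 19 (15.2%) in opposite ways. Ribosomal proteins, with 19 lateral and 15 septal of 78, had none beyond 1.5-fold on both arrays and 1 passing it in opposite ways. By side alone, histocompatibility and Ly6 genes had 4 lateral and 15 septal of 37 (40.5% septal), integrins 5 and 10 of 28 (35.7%), forkhead and Sox factors 4 and 14 of 55 (25.5%) and histones 5 and 15 of 62 (24.2%), against 17.0% of all genes. Cytochromes P450 had 18 lateral and 6 septal of 69 (26.1% lateral) and TRIM proteins 13 and 4 of 49 (26.5%), against 18.7% of all genes. Trim21, an antibody receptor with ubiquitin ligase activity, was at 0.92 and 0.81 and Trim65 at 0.60 and 0.85.

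Of 1193 genes with 2 or more features, 37 had every feature lateral on both arrays (3.10%) and 42 every feature septal (3.52%). By the mean of the 2 arrays, a looser limit than both arrays singly, those beyond 1.5-fold were Strbp, a spermatid RNA-binding protein, Ddx17, an RNA helicase, the adhesion molecule Alcam and the natriuretic peptide clearance receptor Npr3 laterally, and Pcdha6, Rpap1 and Anp32a septally. Their features differed in size, as in Ddx17, where the features were at 0.22 and 3.10 on the Cy5-lateral array and at 0.04 and 1.28 on the Cy3-lateral array. The features of Npr3 were at 0.26 and 1.47 on the first and at 0.69 and 0.28 on the second. By contrast the features of Atp2b1, a plasma membrane calcium pump, were at -0.45 and -0.62 on the Cy5-lateral array and at -0.31 and -0.39 on the Cy3-lateral array.

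The hearts are separate RNA samples that had no part in choosing the pool's genes. In all 4 hearts 7.80% of all genes were lateral and 7.63% septal. Of the 99 lateral pool genes 17 were lateral in all 4 hearts (17.2%) and 5 were septal (5.05%). Of the 95 septal pool genes 8 were septal in all 4 hearts (8.42%) and 2 were lateral (2.11%). The median over the hearts' mean ratios was 0.07 for the lateral pool genes and -0.02 for the septal ones. A majority of the pool's larger ratios thus had no common side in the hearts, and the septal share was near that of all genes. The number of shared lateral genes was 26 without heart 4. That of shared septal genes was 18 without heart 3, 15 without heart 4 and 16 without heart 5. Fewer hearts then had to share a side. The share of all genes with a heart left out is not given here, so these counts have no base to be read against.

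Among the 17 lateral genes Nmb, the neuropeptide neuromedin B, was at 0.52, 0.94, 0.79 and 0.57 in hearts 1, 3, 4 and 5, against 0.82 and 0.71 in the pool. Neat1, a nuclear noncoding RNA, was at 0.45, 0.68, 0.54 and 0.32 in the hearts, against 0.60 and 0.92 in the pool. The hearts and the pool overlapped for both, as for Cnn1. Other shared sides rest on ratios near 0 in the hearts, such as Olfr507, at 0.06, 0.10, 0.03 and 0.48 in the hearts, against 2.00 and 1.81 in the pool. Slc49a4, a membrane transporter, was at 0.00, 0.07, 0.01 and 0.23 in the hearts, against 2.04 and 1.64 in the pool. Among the 8 septal genes Coro1b, an actin regulator, was at -0.18, -0.65, -0.61 and -0.16 in the hearts, against -0.86 and -0.94 in the pool. Lars2, the mitochondrial leucyl-tRNA synthetase, was at -0.05, -0.16, -0.21 and -0.10 in the hearts, against -0.72 and -0.66 in the pool. For these genes no heart reached the pool.

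**Figure D5:**
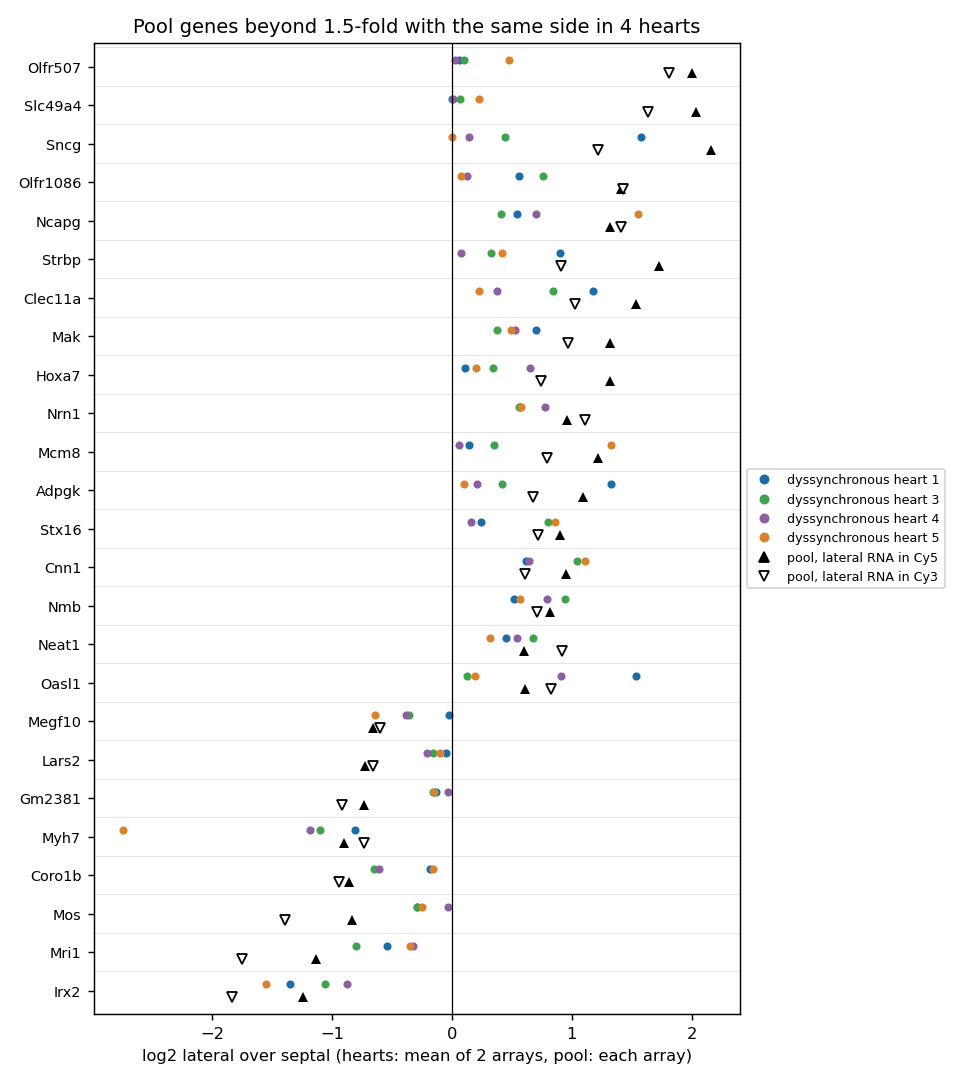
Log2 ratio of lateral over septal wall for the 17 lateral and 8 septal pool genes beyond 1.5-fold on both pool arrays that had the same side in all 4 hearts. Coloured circles are the hearts (mean of 2 arrays each) and triangles the 2 pool arrays. Circles and triangles overlap for Irx2, Myh7, Cnn1, Nmb and Neat1, and all circles lie nearer to 0 than the triangles for Olfr507, Slc49a4, Mri1 and Mos.

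On all 10 arrays 68 genes were lateral (0.412%) and 64 septal (0.388%). Of these, Cnn1, Nmb and Neat1 were also beyond 1.5-fold laterally on both pool arrays, and Irx2, Myh7 and Lars2 septally. Mhrt, a noncoding RNA read from the strand opposite Myh7, was picked out after its values were seen and lies at chr14:54968787-54974349 (GRCm38.p6), overlapping Myh7 at chr14:54970684-54994626. Mhrt was at 0.24, 0.53, 0.49 and 0.38 in hearts 1, 3, 4 and 5, against 0.57 and 0.49 in the pool, with Myh7 septal on every one of these arrays. Each of the 2 genes rests on 1 feature, and the strand the features read was not checked. Further lateral genes, also picked out afterwards, were Slc9a2, a sodium-hydrogen exchanger (0.58 and 0.55 in the pool), and Stk39, a kinase of ion cotransporters (0.48 and 0.33). Further septal ones were Pcp4, a calmodulin-binding protein (-1.11 and -0.56), and Nfix, a nuclear factor I gene (-0.51 and -0.62).

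The difference of the hearts from the pool was fitted over all 16504 genes with limma, with the pool as 1 replicate that is assumed to vary like a heart. It called 0 genes (0%) at an adjusted p under 0.05. There were 783 genes at an unadjusted p under 0.05, the lowest adjusted p was 0.644, and 1 gene was called by an ordinary test without moderation. That gene, Agr3, was at 0.00 in each of the 4 hearts, against -0.97 and an exact 0 on the Cy5-lateral and Cy3-lateral pool arrays. A second fit, over the 10 single arrays with terms for dye and with each heart or pool as a random block, called 3 genes, Slc49a4 (-1.76, adjusted p 0.0077), Pop1 (-1.39, adjusted p 0.0131) and Olfr507 (-1.74, adjusted p 0.039), each lower in 4 of 4 hearts than in the pool. With an estimated correlation within the block of -0.049 that fit treats the 2 arrays of an RNA pair as nearly independent.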

How the data were processed

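Lateral and septal wall RNA was compared on 10 two-colour mouse arrays, 2 of them of the control pool. The deposited values, read with Agilent Feature Extraction 7.5 per the submitters' processing notes, were taken as log10 ratios of Cy5 over Cy3, although the labels state neither base nor direction. For the authors' normalization and filters, nothing is stated in the labels used here. The median over genes was 0 on each pool array. Ratios were multiplied by 3.32 to log2 and turned to lateral over septal by the labels' dyes. A value of -2 counted as missing and occurred on unnamed features only. The deposited ratio was exactly 0 for 9.62% of features on the Cy5-lateral and 15.1% on the Cy3-lateral pool array, with no stated meaning. Of 22393 features 18218 had 1 gene symbol, 16 several and 4159 none in the platform annotation, and 18175 of the named ones were matched by Entrez number to RefSeq (GRCm38.p6). Features were averaged per symbol.

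Pool genes were counted by sign and by a 1.5-fold limit on both arrays, with no test. Hearts and pool (mean of both dye orientations each) were compared with limma 3.58.1 (R 4.3.3) lmFit and eBayes, two-sided, with Benjamini-Hochberg adjustment over 16504 genes and a threshold of 0.05. This was first tested on simulated data. Its p-values measure the spread between hearts. Genes were named by rule: the 20 highest and 20 lowest and the list or family members beyond 1.5-fold, up to 4 per list, those with one side in all 4 hearts, those with concordant features, and a set of well-known cardiac genes. A few others are said to be picked out afterwards or are named to show list members without one sign. The members and lists were chosen with earlier results of these data known. Alternatives were array medians subtracted, a common spread, zeros as no value, single features, the hearts' dye effect subtracted, ratios taken as already turned, single arrays, other fold limits, another fit and each heart left out. No column went unmapped.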

Additional observations from a re-analysis of the deposited data

Results flagged for a closer look

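In 62 sets of 4 hearts, those of the genes shared with the pool and of a set of well-known cardiac genes, 4 had a heart far from the others, where about 1 in 20, or 3.1, are found by chance. Irx6 was at 1.19 in heart 5, while hearts 1, 3 and 4 ranged from -0.17 to -0.01. Olfr507 was at 0.48 in heart 5, Nrn1, a neuronal surface protein gene, at 0.78 in heart 4 and Mos, a kinase of oocyte maturation, at -0.03 in heart 4.

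Among the 194 pool genes beyond 1.5-fold on both arrays and the same set of cardiac genes, which were the only ones searched, 8 had all 4 hearts on one side and both pool arrays on the other. Limma's test of the difference did not pass for any of the 8. Alg11, a glycosylation enzyme, was at -0.20, -0.64, -0.27 and -0.17 in hearts 1, 3, 4 and 5, against 1.01 and 0.65 in the pool, a difference of hearts minus pool of -1.15 (adjusted p 0.827). Lalba, the milk protein alpha-lactalbumin, was at -0.29, -0.13, -0.48 and -0.03 in the hearts, against 1.24 and 0.64 in the pool, a difference of -1.18 (adjusted p 0.756). The differences were -1.13 for the ubiquitin ligase gene Rnf26, -1.33 for St6galnac5 and -1.09 for Zfp959, all lateral in the pool. They were 1.02 for Irak1bp1, 1.22 for the sodium-hydrogen exchanger Slc9a8 and 0.66 for Hand2, all septal in the pool. Slc9a8 was at 1.59 in heart 4, while hearts 1, 3 and 5 ranged from 0.11 to 0.26.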

How the results depend on the processing

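Subtracting array medians left the 194 genes beyond 1.5-fold as they were, and with exact zeros as no value all 194 stayed among 196. With a common spread of the pool arrays 156 of the 194 stayed among 214. With the hearts' mean dye effect subtracted from each pool array, 110 of the 194 stayed among 280 (165 lateral and 115 septal). Of the 165, 27 were lateral in all 4 hearts, against 7.80% of all genes. Here the heart arrays, through their dye effect, had a part in choosing the 165 genes. The hearts' and the pool's dye differences correlated at 0.48 over genes. If the deposited ratios had already been turned, 4704 genes would be lateral on both arrays, and 442 lateral and 384 septal genes would be beyond 1.5-fold. On the Cy5-lateral array alone 8195 genes were lateral and 7120 septal, with 2051 and 1782 beyond 1.5-fold, and on the Cy3-lateral array alone 6908 and 7556, with 944 and 1089. At a 2-fold limit 15 lateral and 11 septal genes remained. Of these, 6 and 2 had their side in all 4 hearts, where 7.80% of all genes were lateral and 7.63% septal. At a 1.3-fold limit there were 246 lateral and 258 septal genes. Leaving out 1 heart gave 18 to 26 shared lateral and 12 to 18 shared septal genes, with no matching share of all genes given. For hearts minus pool the ordinary test called 1 gene (51 genes without spread among hearts could not be fitted), the fit of single arrays with a dye term called 3, and 0 were called under every other alternative run, each heart left out included. The medians of the 29 lists and the means of the named genes moved by less than the spread between the 2 arrays with array medians subtracted (224 genes) or zeros as no value (223 genes, as Tbx3 is 0 on both arrays and lost its value). No paired analysis was possible because the pool is a single replicate, whose number 1 only names it and does not tie it to heart 1. The lack of channel intensities and of a second pool limits what the ratios can show, and dim features could not be left out.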
